A study of Mus musculus with 6 samples.

Results

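The 10 genes described here mark the connective tissue cells of a tumor. They were found by exact symbol among the 21358 entries of the deposited gene table, and all 10 were present and passed the filter on low values. Fibroblast genes (*Pdgfra*, *Fap*, *Dcn*, *Lum* and *Postn*) were compared with contractile genes (*Acta2* and *Tagln*) and pericyte genes (*Pdgfrb*, *Rgs5* and *Cspg4*). The values are FPKM (fragments per kilobase of exon, scaled also to the number of mapped fragments), so levels of different genes within a tumor can be set side by side. RNA came from whole subcutaneous B16-F10 tumors, a melanoma line of C57/BL6 origin grown in C57/BL6 mice, and was taken at day 12. Every mouse was irradiated (total body, 500 cGy) and was given 2000000 gp100-activated pmel-1 splenocytes by adoptive cell transfer (ACT) once tumors measured at least 150 mm3. The 3 tumors of the ACT + IL-2 group came from mice given IL-2 at 0.4 mg/kg on 3 days of each 9-day cycle. The 3 tumors of the ACT + NKTR-214 group came from mice given NKTR-214, a releasable pegylated IL-2, at 0.8 mg/kg 1 time per cycle. Tumors without a cytokine, or without ACT, were not analysed here, so each value compares one cytokine with the other.

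Fibroblasts lay down the collagen matrix around and within a tumor. PDGF receptor α is the usual surface marker of these cells, and the proteoglycans decorin and lumican bind the collagen fibrils that they secrete. Pericytes wrap the endothelial tube of small vessels, and PDGF-B released by endothelium holds them there through PDGF receptor β. Both cell types can take on a contractile state, in which smooth muscle actin (*Acta2*) and the actin-binding protein transgelin (*Tagln*) are made.

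In the ACT + NKTR-214 tumors, decorin was higher than in the ACT + IL-2 tumors, and so were *Pdgfra*, *Postn* and *Pdgfrb*. The contractile genes and the pericyte gene *Rgs5* did not pass the test in either direction. Of the 5 fibroblast genes, 3 rose and 0 fell, and of the 5 contractile and pericyte genes, 1 rose and 0 fell (limma on log2(FPKM + 1), Benjamini-Hochberg adjusted p under 0.05 over 14172 genes). Over all genes tested, 20.7% were called higher and 8.28% lower by the same rule, so 4 of 10 members called higher is to be read against 20.7%. The split over all genes depended on scaling, with 3259 higher and 3709 lower after scaling to the 75th percentile, where 3 members were called higher. The groups did not overlap, with ACT + NKTR-214 above, for 4 of the 10 (*Pdgfra*, *Dcn*, *Pdgfrb* and *Cspg4*), against 27.1% of all genes tested. The median log2 fold change (ACT + NKTR-214 minus ACT + IL-2) was 0.88 for the fibroblast genes and 0.34 for the contractile and pericyte genes, against 0.05 for all genes tested. The count of members called higher depended on single ACT + IL-2 tumors: it was 8 without replicate 1, 0 without replicate 2 and 2 without replicate 3. The names replicate 1 to 3 stand for different mice in the 2 groups. The smallest p of an exact two-sided permutation test on 3 and 3 tumors is 0.1, and the adjusted p-values below draw on variance pooled by limma over genes. Whole-tumor RNA cannot tell fewer cells of a type from less RNA per cell.

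**Figure D1:**
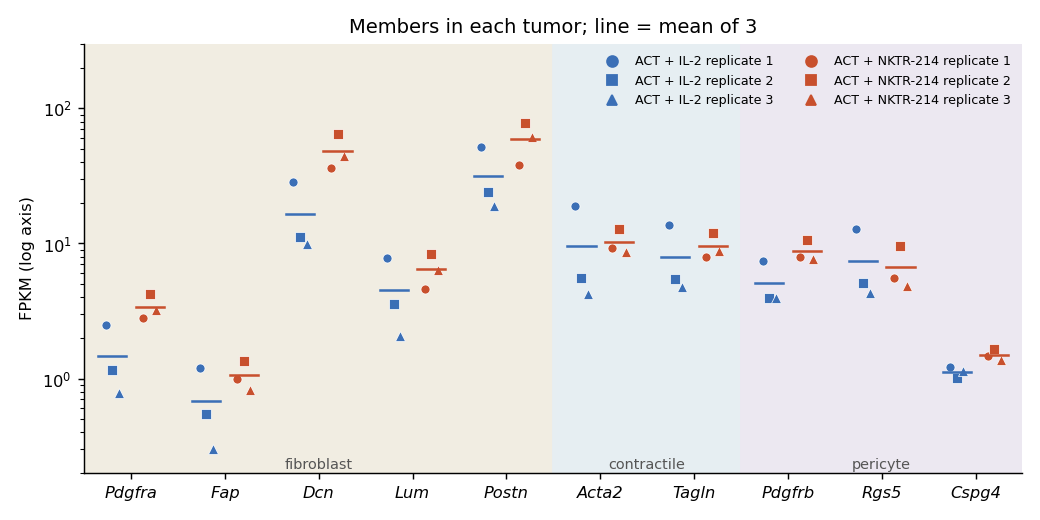
FPKM of each member (log axis) in the 3 ACT + IL-2 tumors (blue) and the 3 ACT + NKTR-214 tumors (red), with marker shape for the replicate and a line at the group mean. ACT + IL-2 replicate 1 was the highest tumor of its group for all 10 members, and ACT + NKTR-214 replicate 2 was the highest of its group for all 10.

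The libraries held about 20900000 to 24600000 reads, as estimated from the steps between low FPKM values. At that depth the lowest member, *Fap*, rested on 17 to 89 reads per tumor, a counting error of 24.3% at the lowest value. The melanocyte genes that define B16-F10 were abundant in all 6 tumors, with a summed FPKM of 5672 to 7262 in ACT + IL-2 and 2774 to 3930 in ACT + NKTR-214. One library stood apart for stromal genes: ACT + IL-2 replicate 1 had 1.14 (*Cspg4*) to 3.87 (*Acta2*) times the mean FPKM of the other ACT + IL-2 tumors. Results are therefore also given without that tumor. It was picked for its high values, and leaving it out raised the change of every member. ACT + NKTR-214 replicate 2 was likewise the highest of its group for all 10 members, and leaving it out lowered them. The log2 fold changes were then 1.38 for *Dcn*, 0.36 for *Lum*, 0.18 for *Acta2* and -0.29 for *Rgs5*, and 4 members were called higher.

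*Dcn* (decorin, chromosome 10, 97479609 to 97518143 on GRCm38) showed the largest change among the members. The ACT + IL-2 tumors held 28.5, 11.2 and 9.96 FPKM, in the order of replicates 1 to 3, and the ACT + NKTR-214 tumors held 36.0, 64.4 and 44.6 FPKM in the same order, which is kept for all values that follow. Every ACT + NKTR-214 tumor lay above every ACT + IL-2 tumor. The group means were 16.6 ± 10.4 and 48.3 ± 14.5 FPKM (SD, n = 3 each), or 1.60 on the log2 scale (standard error, SE, 0.29, limma adjusted p = 0.000643). Without ACT + IL-2 replicate 1 the log2 fold change was 2.05, and without ACT + IL-2 replicate 2 it was 1.41 and did not pass (limma adjusted p = 0.052).

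*Lum* (lumican) lies next to *Dcn* on chromosome 10 (97565128 to 97572703) and encodes a proteoglycan of the same small leucine-rich family. Its levels were 7.87, 3.54 and 2.08 FPKM in ACT + IL-2 and 4.58, 8.40 and 6.32 FPKM in ACT + NKTR-214. ACT + IL-2 replicate 1 lay within the range of the other group, so the groups overlapped. The change in log2 units was 0.54 (SE 0.29, limma adjusted p = 0.182). It was 0.96 without ACT + IL-2 replicate 1 and then passed (limma adjusted p = 9.57e-06).

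The neighboring genes *Dcn* and *Lum* therefore differed in how far they changed. *Dcn* was at 3.63, 3.16 and 4.80 times the FPKM of *Lum* in the ACT + IL-2 tumors and at 7.87, 7.67 and 7.06 times in the ACT + NKTR-214 tumors. This ratio does not depend on the scaling of a library, and the groups did not overlap. The ratio was chosen after the values had been seen. Of all pairs of genes with a mean of at least 1 FPKM, 64.8% did not overlap either.

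*Pdgfra* (chromosome 5, 75152292 to 75198215) encodes the receptor for PDGF-A and PDGF-C that marks fibroblasts. It had 2.50, 1.15 and 0.779 FPKM in ACT + IL-2 and 2.79, 4.20 and 3.22 FPKM in ACT + NKTR-214. The groups did not overlap, although ACT + IL-2 replicate 1 came close to the lowest ACT + NKTR-214 tumor. Its log2 fold change was 0.88 (SE 0.21, limma adjusted p = 0.00485), and without ACT + IL-2 replicate 2 it was 0.81 and no longer passed (limma adjusted p = 0.0823). Of its exon bases, 6.50% also belong to other annotated genes.

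*Postn* (periostin, chromosome 3, 54361109 to 54391037) encodes a secreted matrix protein that cross-links collagen networks, and it was the most abundant member. It had 52.1, 24.2 and 19.1 FPKM in ACT + IL-2 and 38.2, 78.0 and 61.8 FPKM in ACT + NKTR-214. ACT + IL-2 replicate 1 was above ACT + NKTR-214 replicate 1, so the groups overlapped. Its log2 fold change of 0.95 (SE 0.30, limma adjusted p = 0.0244) was the least stable of the 4 calls, and did not pass with 75th percentile scaling (limma adjusted p = 0.107) or without ACT + IL-2 replicate 2 or 3 (limma adjusted p = 0.204 and 0.0898).

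*Fap* (chromosome 2, 62500943 to 62574075) encodes fibroblast activation protein, a surface protease of activated fibroblasts, and was the lowest member. It had 1.20, 0.546 and 0.299 FPKM in ACT + IL-2 and 0.997, 1.34 and 0.82 FPKM in ACT + NKTR-214. The ACT + IL-2 tumors spanned 4.02-fold, and the highest of them lay inside the range of the other group. On the log2 scale the difference was 0.32 (SE 0.16, limma adjusted p = 0.166). It was 0.53 without ACT + IL-2 replicate 1 (limma adjusted p = 0.000576).

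Among the contractile genes, *Acta2* (chromosome 19, 34241090 to 34255590) encodes α-smooth muscle actin. Its transcription is known to be driven by serum response factor through CArG boxes, whose core is searched here as CCNNNNNNGG on either strand, with A or T at 5 or more of the 6 middle bases. The 250 bases before the *Acta2* start in RefSeq (GRCm38.p6) held 2 such boxes, shown in capitals with 10 bases on each side because *Acta2* is a textbook target of this factor. Both stretches lie on the minus strand, upstream of the RefSeq start and within the longer first exon of GENCODE vM21:
Acta2 box at chr19:34255438-34255467: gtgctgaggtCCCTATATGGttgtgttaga
Acta2 box at chr19:34255388-34255417: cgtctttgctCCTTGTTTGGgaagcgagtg
Of 32851 promoter windows of the same length, 8.59% held at least 1 such box and 0.67% held 2 or more. Promoter windows were given for 5 of the 10 members, and the windows of the other 4 (*Rgs5*, *Postn*, *Pdgfra* and *Cspg4*) held none.

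*Postn* has a further listed start, and its window (chr3:54359017-54359266) also held no box and is not printed. For comparison, these are the 250 bases before the start of the pericyte gene *Rgs5* and before a start of the fibroblast gene *Postn*. Both are from RefSeq on the plus strand of GRCm38.p6 and are written in lower case throughout, since no box was found in them:
Rgs5 promoter at chr1:169655251-169655500: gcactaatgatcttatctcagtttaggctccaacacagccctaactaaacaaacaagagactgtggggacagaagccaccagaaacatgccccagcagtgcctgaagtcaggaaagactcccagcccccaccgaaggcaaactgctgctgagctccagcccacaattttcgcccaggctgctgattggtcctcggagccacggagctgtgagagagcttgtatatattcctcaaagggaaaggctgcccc
Postn promoter at chr3:54360857-54361106: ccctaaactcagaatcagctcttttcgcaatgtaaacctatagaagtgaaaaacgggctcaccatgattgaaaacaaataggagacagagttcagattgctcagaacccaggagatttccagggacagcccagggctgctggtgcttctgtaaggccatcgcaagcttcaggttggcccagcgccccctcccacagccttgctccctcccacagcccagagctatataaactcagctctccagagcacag
A match to these letters is a description of the window only.

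*Acta2* had 18.9, 5.53 and 4.24 FPKM in ACT + IL-2 and 9.34, 12.7 and 8.66 FPKM in ACT + NKTR-214. The highest of all 6 tumors was ACT + IL-2 replicate 1, and the other ACT + IL-2 tumors were the lowest. The group means were 9.55 ± 8.11 and 10.2 ± 2.17 FPKM (SD, n = 3 each), and the log2 fold change was 0.34 (SE 0.34, limma adjusted p = 0.509). It was 0.92 without ACT + IL-2 replicate 1 (limma adjusted p = 1.41e-05) and -0.038 without ACT + IL-2 replicate 3. The skeletal muscle actin *Acta1* was highest in ACT + IL-2 replicate 3 (28.5 FPKM), the tumor with the lowest *Acta2*. Only 0.326% of the 50-base windows of *Acta2* transcripts occur in another annotated gene.

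*Tagln* (transgelin, chromosome 9, 45929619 to 45936058) had 13.7, 5.48 and 4.79 FPKM in ACT + IL-2 and 7.94, 11.9 and 8.84 FPKM in ACT + NKTR-214, the same order of tumors as *Acta2* in ACT + IL-2. In log2 terms the change was 0.35 (SE 0.27, limma adjusted p = 0.372), and it was 0.77 without ACT + IL-2 replicate 1 (limma adjusted p = 0.000454). The value of *Tagln* is uncertain, since 67.9% of its exon bases also belong to genes on the other strand, *Pcsk7* and *Gm48529*, and the counting is not stated to use strand. *Pcsk7* had 6.42 ± 0.908 and 7.66 ± 0.672 FPKM (SD, n = 3 each).

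Among the pericyte genes, *Pdgfrb* encodes PDGF receptor β, which fibroblasts also carry. It had 7.37, 3.96 and 3.92 FPKM in ACT + IL-2 and 7.95, 10.6 and 7.69 FPKM in ACT + NKTR-214. The groups did not overlap. The change in log2 units was 0.72 (SE 0.20, limma adjusted p = 0.0147), and it did not pass without ACT + IL-2 replicate 2 (limma adjusted p = 0.115) or replicate 3 (0.59 on the log2 scale, limma adjusted p = 0.0546).

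*Rgs5* (chromosome 1, 169655501 to 169695813) encodes a regulator of G protein signaling and is a marker of pericytes. It had 12.8, 5.07 and 4.28 FPKM in ACT + IL-2 and 5.56, 9.58 and 4.88 FPKM in ACT + NKTR-214, so the groups overlapped widely. It was the only member with a lower mean in ACT + NKTR-214 (7.38 ± 4.70 against 6.67 ± 2.54 FPKM, SD, n = 3 each). In log2 units the change was -0.038 (SE 0.29, limma adjusted p = 0.942). It was 0.39 without ACT + IL-2 replicate 1 and did not pass there either (limma adjusted p = 0.125).

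*Cspg4* (chromosome 9, 56865033 to 56899870) encodes the NG2 proteoglycan of pericytes. It had 1.22, 1.01 and 1.14 FPKM in ACT + IL-2 and 1.47, 1.65 and 1.37 FPKM in ACT + NKTR-214. The groups did not overlap and each spanned only 1.21-fold, unlike the other members, which spanned 1.88-fold to 4.46-fold within ACT + IL-2. The log2 fold change of 0.23 (SE 0.12) did not pass (limma adjusted p = 0.16), and it was -0.061 with quantile normalization.

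**Figure D2:**
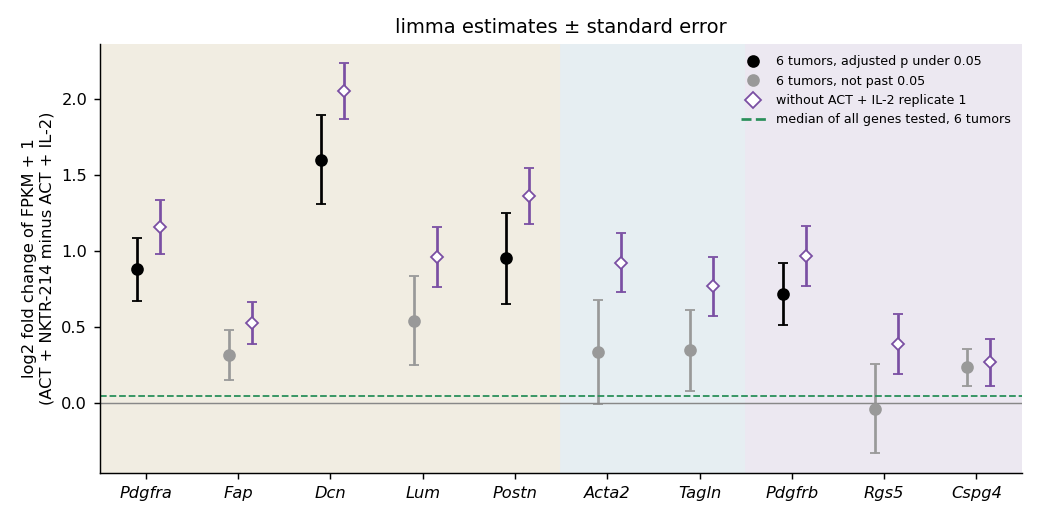
log2 fold change of FPKM + 1 (ACT + NKTR-214 minus ACT + IL-2) of each member with its standard error, from all 6 tumors (filled, black where the adjusted p was under 0.05) and without ACT + IL-2 replicate 1 (open). *Dcn* was the highest in both fits (1.60 and 2.05), and 4 members passed in the first and 8 in the second. A fit without ACT + NKTR-214 replicate 2, not drawn, gave 4.

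The members rose and fell together from tumor to tumor. Pearson's r of log2(FPKM + 1) over the 6 tumors had a median of 0.88 over the 45 pairs of members, from 0.34 (*Rgs5* with *Cspg4*) to 0.99 (*Pdgfra* with *Dcn*). These are descriptions, since the points share libraries and groups. The gene with the pattern most like that of *Dcn*, among 11558 genes with a mean of at least 1 FPKM, was *Il6ra* (r = 0.9996), followed by *Acy1*, *Fbln2*, *Pira6:2* and *Trim12c*. For *Acta2* they were *Fcrls* (r = 0.99), *Smagp*, *Sh2d1b1*, *Tagln* (r = 0.98) and *Pus7l*. For *Rgs5* they were *Fzd4* (r = 0.98), *Cdh13*, *Nod1*, *Ushbp1* and *Prune2*.

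Because the members varied together, they were also compared within each tumor, as ratios of FPKM. The ratios of single genes were chosen after the values had been seen. The mean log2(FPKM + 1) of the 5 fibroblast genes exceeded that of the 5 contractile and pericyte genes by 0.10, 0.17 and -0.02 in the ACT + IL-2 tumors. In the ACT + NKTR-214 tumors it exceeded it by 0.44, 0.67 and 0.76. The lowest ACT + NKTR-214 value was 0.27 above the highest ACT + IL-2 value, and the difference between the group means was 0.54. That difference ran from 0.47 to 0.63 with 1 tumor left out and was 0.55 without ACT + IL-2 replicate 1. Taken alone, the fibroblast genes averaged 2.63 ± 0.63 and 3.49 ± 0.33 on this scale (SD, n = 3 each), with overlap between groups.

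*Dcn* was the fibroblast gene that moved most. Relative to *Rgs5*, *Dcn* stood at 2.23, 2.21 and 2.33 in the ACT + IL-2 tumors, although its own level ranged 2.86-fold among them. The same ratio was 6.48, 6.72 and 9.14 in the ACT + NKTR-214 tumors. Relative to *Tagln*, it was 2.08, 2.04 and 2.08 in ACT + IL-2 and 4.53, 5.41 and 5.05 in ACT + NKTR-214. Relative to *Acta2*, it was 1.51, 2.02 and 2.35 against 3.86, 5.07 and 5.15. The ratio to *Postn*, another fibroblast gene, was 0.548, 0.462 and 0.522 against 0.942, 0.825 and 0.722. The ratio to *Pdgfra* moved least, from 11.3 ± 1.52 to 14.0 ± 1.23 (SD, n = 3 each). *Dcn* was higher in ACT + NKTR-214 relative to each of the other 9 members without overlap. This is a description of the member with the largest change, and 64.8% of all pairs of genes with a mean of at least 1 FPKM did not overlap either.

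Ratios among the contractile and pericyte genes overlapped between groups in 7 of 10 pairs. *Tagln* relative to *Acta2* averaged 0.949 ± 0.206 with IL-2 and 0.936 ± 0.0852 with NKTR-214 (SD, n = 3 each), with overlap. *Pdgfrb* relative to *Rgs5* was the exception with the largest change, at 0.577, 0.782 and 0.916 against 1.43, 1.11 and 1.58. Of the 45 ratios between 2 members, 23 did not overlap between groups (51.1%), 7 of 10 within the fibroblast genes, 3 of 10 within the contractile and pericyte genes and 13 of 25 between them. The background of 64.8% has a minimum that leaves out *Fap*. The share over all 45 ratios was below that background and the share within the fibroblast genes (70.0%) was near it, so nothing particular to the members is read from these counts. Of the 25 ratios of a fibroblast gene to a contractile or pericyte gene, 23 had a higher mean log2 ratio in ACT + NKTR-214. These ratios share their genes and tumors, so this count only restates the changes of the single genes.

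**Figure D3:**
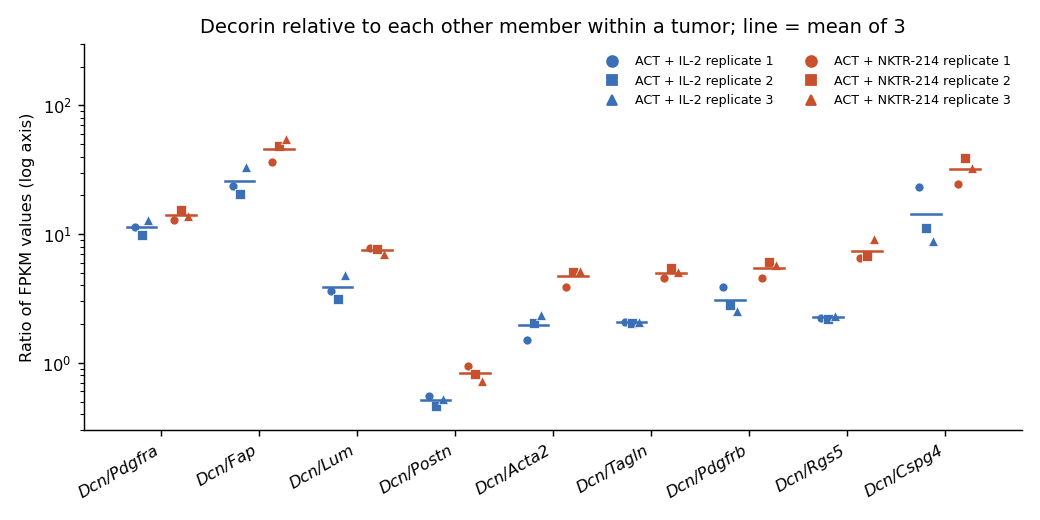
Ratio of the FPKM of *Dcn* to that of each of the other 9 members in each tumor (log axis), with a line at the group mean. The ACT + NKTR-214 tumors (red) lay above the ACT + IL-2 tumors (blue) in all 9 ratios, and *Dcn*/*Rgs5* had group means of 2.26 and 7.45.

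Further fibroblast genes, from a list of 24 that were all tested, were more often higher than lower. The same held for all genes tested (20.7% higher and 8.28% lower), against which this list and those below are to be read. Of the 24, 14 were higher, 1 was lower and 9 did not pass, with a median log2 fold change of 0.68. The count called higher was 20 without ACT + IL-2 replicate 1, fell to 3 when replicate 2 of that group was left out, and was 10 with 75th percentile scaling. *Pi16*, a marker of a fibroblast type of the adventitia of vessels, rose from 2.42 ± 1.31 to 13.8 ± 3.88 FPKM (SD, n = 3 each), with a log2 difference of 2.17 (limma adjusted p = 1.19e-05). *Lox*, which encodes the lysyl oxidase that cross-links collagen, rose from 14.1 ± 9.45 to 40.7 ± 11.5 FPKM, with a log2 difference of 1.60 (limma adjusted p = 0.000871). The transcription factor gene *Twist2* rose from 0.55 ± 0.217 to 1.52 ± 0.267 FPKM (limma adjusted p = 0.000692). The gene that fell was *Fbln1*, which encodes the matrix protein fibulin-1, from 25.5 ± 3.11 to 12.1 ± 0.55 FPKM (log2 fold change -1.01, limma adjusted p = 6.67e-05). All of these 4 genes were separated between groups without overlap, but they were named for having the smallest adjusted p. Of all genes tested, 27.1% lay above and 15.3% below without overlap.

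All 9 fibrillar and associated collagens were higher, with a median log2 fold change of 1.19. *Col5a2* had a log2 fold change of 1.38, *Col6a1* of 1.35 and *Col6a2* of 1.25 (limma adjusted p = 0.000864, 0.00119 and 0.00295). None of the 9 passed without ACT + IL-2 replicate 2, 5 passed without ACT + IL-2 replicate 3, and 4 passed with 75th percentile scaling.

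The other small leucine-rich proteoglycans, relatives of decorin and lumican, were mixed. Of 10 listed, 8 were tested, 3 were higher and 0 were lower, against 20.7% and 8.28% of all genes tested. Their median log2 fold change was 0.13. *Bgn* (biglycan) rose from 87.1 ± 42.6 to 179 ± 53.7 FPKM (SD, n = 3 each, limma adjusted p = 0.00693), *Prelp* from 3.46 ± 2.54 to 7.38 ± 1.39 FPKM (limma adjusted p = 0.0127) and *Podn* from 0.723 ± 0.326 to 1.51 ± 0.504 FPKM (limma adjusted p = 0.0182). *Aspn* and *Ogn* did not pass, with log2 fold changes of -0.29 and 0.08, and *Fmod* had -0.42 (limma adjusted p = 0.163). *Kera*, the gene for keratocan, was listed at 0 in all 6 tumors. Without ACT + IL-2 replicate 2 none of the 8 passed, and without ACT + NKTR-214 replicate 2 there were 2 called lower. With 75th percentile scaling 1 was called higher.

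Of the 4 PDGF ligand genes, 1 was higher, near the 20.7% of all genes tested, and all 4 were higher without ACT + IL-2 replicate 1. *Pdgfc*, a ligand of PDGF receptor α, had 1.92, 0.834 and 0.45 FPKM in ACT + IL-2 and 3.48, 4.22 and 3.48 FPKM in ACT + NKTR-214. Its log2 fold change was 1.25 (SE 0.20, limma adjusted p = 0.000219), with no overlap. *Pdgfb*, the ligand by which endothelium holds pericytes, had a log2 fold change of 0.25 (limma adjusted p = 0.452), *Pdgfa* 0.38 (adjusted p = 0.108) and *Pdgfd* 0.15 (adjusted p = 0.623).

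TGF-β is the main known inducer of matrix and contractile genes in fibroblasts. Of 12 genes for its ligands, receptors and targets, 7 were higher and 0 were lower, with a median log2 fold change of 0.69. *Tgfb1* rose from 24.3 ± 8.21 to 73.5 ± 16.6 FPKM (SD, n = 3 each), with a log2 difference of 1.58 (limma adjusted p = 3.64e-05), whereas *Tgfb2* and *Tgfb3* did not pass (log2 fold changes of -0.26 and 0.06). The receptor gene *Tgfbr2* had a log2 fold change of 1.02 and *Tgfbr3* of 0.73, and *Tgfbr1* did not pass at 0.05. The target genes *Inhba* and *Tgfbi* had log2 fold changes of 1.52 and 1.50 (limma adjusted p = 7.77e-05 and 0.000492). *Ctgf* and *Cyr61*, also targets, did not pass (limma adjusted p = 0.0652 and 0.064). The count called higher was 5 to 8 with 1 tumor left out. Leukocytes make *Tgfb1* as well, and their markers rose in the same tumors. Which cells made the transcripts of the target genes was not tested.

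Of 9 genes listed for the inflammatory fibroblast state, 7 were higher and 0 lower, against 20.7% of all genes tested called higher. Their median log2 fold change was 1.02. Which cells made these transcripts was not tested, and leukocyte markers rose in the same tumors. *Lif*, a cytokine gene, rose from 0.755 ± 0.36 to 6.14 ± 1.20 FPKM, the alarmin gene *Il33* from 3.03 ± 1.19 to 11.9 ± 3.78 FPKM, and the chemokine gene *Cxcl12* from 5.18 ± 3.34 to 14.5 ± 5.81 FPKM (SD, n = 3 each). Their adjusted p-values were 5.83e-07, 5.08e-05 and 0.00213 from limma. Without ACT + IL-2 replicate 2, 2 of the 9 passed, and with quantile normalization 4 did.

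Of 15 further contractile genes, 14 were tested, 1 was higher, 1 was lower and 12 did not pass, and the median log2 fold change of 0.09 was close to that of all genes. *Myh11*, the smooth muscle myosin heavy chain gene, rose from 0.781 ± 0.522 to 1.75 ± 0.337 FPKM (SD, n = 3 each, limma adjusted p = 0.00917). *Tpm1*, a tropomyosin gene at levels far above *Acta2*, fell from 137 ± 22.6 to 68.9 ± 8.35 FPKM (limma adjusted p = 0.000589). It had 142, 112 and 156 FPKM in ACT + IL-2 and 78.2, 61.9 and 66.6 FPKM in ACT + NKTR-214. Within each group this was the order of tumors that the summed melanocyte markers had, and which cells made *Tpm1* was not tested. With 1 tumor left out, 0 to 2 genes of this list were higher and 1 was lower, and quantile normalization gave 3 lower.

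Of 12 further pericyte genes, 4 were higher and 0 were lower, against 20.7% and 8.28% of all genes tested. Their median log2 fold change was 0.16. The count called higher was 6 without ACT + IL-2 replicate 1, 1 without replicate 2 and 2 without replicate 3 of that group, and quantile normalization gave 2 higher and 2 lower. *Anpep* changed most, from 8.48 ± 2.54 to 49.7 ± 8.51 FPKM (SD, n = 3 each), with a log2 difference of 2.44 (limma adjusted p = 1.67e-07). Myeloid cells also carry its product, CD13. *Mcam*, an adhesion molecule gene that melanoma cells also use, had a log2 fold change of 0.65 (limma adjusted p = 0.0147), and *Steap4* had 0.79 (limma adjusted p = 0.0495). *Notch3*, *Kcnj8* and *Abcc9*, chosen here after their values were seen because they are the usual companions of *Rgs5*, did not pass, with log2 fold changes of 0.16, -0.03 and -0.22 (limma adjusted p = 0.618, 0.902 and 0.394).

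**Figure D4:**
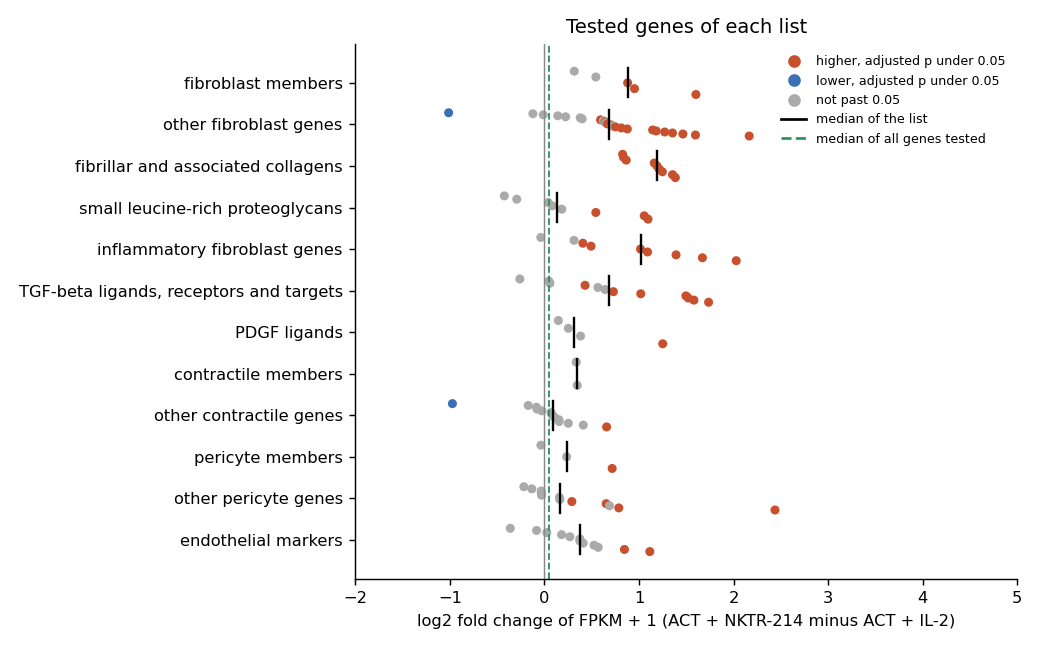
log2 fold change of FPKM + 1 (ACT + NKTR-214 minus ACT + IL-2) of every tested gene in each list, colored by the limma call, with a bar at the median of the list and a dashed line at the median of all genes tested. The medians were 0.88 for the fibroblast members and 1.19 for collagens, and 0.09 and 0.16 for the further contractile and pericyte genes.

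Markers of other cell types differed in direction. The 12 endothelial markers had summed levels of 140, 71.3 and 69.3 FPKM in ACT + IL-2 and 120, 189 and 98.8 FPKM in ACT + NKTR-214, the same high tumors as the members. Of these, 2 were higher (*Pecam1* and *Plvap*, limma adjusted p = 0.00554 and 0.0295), and 10 did not pass, against 20.7% of all genes called higher. Without ACT + IL-2 replicate 1 there were 9 endothelial markers called higher, without ACT + NKTR-214 replicate 3 there were 7, and without ACT + IL-2 replicate 2 there were 0. The 11 leukocyte markers were all higher, with sums of 265 to 713 FPKM in ACT + IL-2 and 1376 to 2481 FPKM in ACT + NKTR-214. The most abundant was *Lyz2*, and *Cd3d*, *Cd8a* and *Cd3e* had log2 fold changes of 3.37, 3.38 and 3.53 (limma adjusted p = 1.11e-07, 1.14e-07 and 3.64e-07). Of 10 melanocyte markers, 8 were lower (5 to 10 with 1 tumor left out), and their sum was highest in ACT + IL-2 replicate 3 (7262 FPKM) and lowest in ACT + NKTR-214 replicate 2 (2774 FPKM). *Mitf*, *Gpr143* and *Trpm1* had log2 fold changes of -1.91, -1.38 and -1.45 (limma adjusted p = 7.65e-06, 1.28e-05 and 8.08e-05). By group mean, *Tyrp1* was the most abundant melanocyte marker in ACT + IL-2 and *Dct* in ACT + NKTR-214. The part of these cell types in the changes of the members was not tested.

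Tissue around the tumor was also represented. The 10 skeletal muscle markers summed to 50.5 to 130 FPKM in ACT + IL-2 and 42.7 to 61.0 FPKM in ACT + NKTR-214, and 7 were lower, *Myh4*, *Tnnt3* and *Actn3* among them, but 0 were lower without ACT + IL-2 replicate 3. The 8 adipocyte markers summed to 29.0 to 127 and 51.7 to 258 FPKM, and 2 (*Cidec* and *Fabp4*) were higher, with 0 to 8 called higher when 1 tumor was left out. In ACT + IL-2 the adipocyte sums were 127, 76.1 and 29.0 FPKM, with the same order of tumors as the sums of the fibroblast members (92.2, 40.7 and 32.2 FPKM). In ACT + NKTR-214 they were 258, 174 and 51.7 FPKM, highest in replicate 1, and the fibroblast members summed to 82.6, 156 and 117 FPKM, highest in replicate 2. Of 9 epidermal markers, 4 were tested and 1 (*Sfn*) was higher, the sums were 1.56 to 1.87 and 1.89 to 4.52 FPKM, and the keratin gene *Krt1* was listed at 0 in all 6 tumors. The part of surrounding tissue in the changes of the members was not tested.

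**Figure D5:**
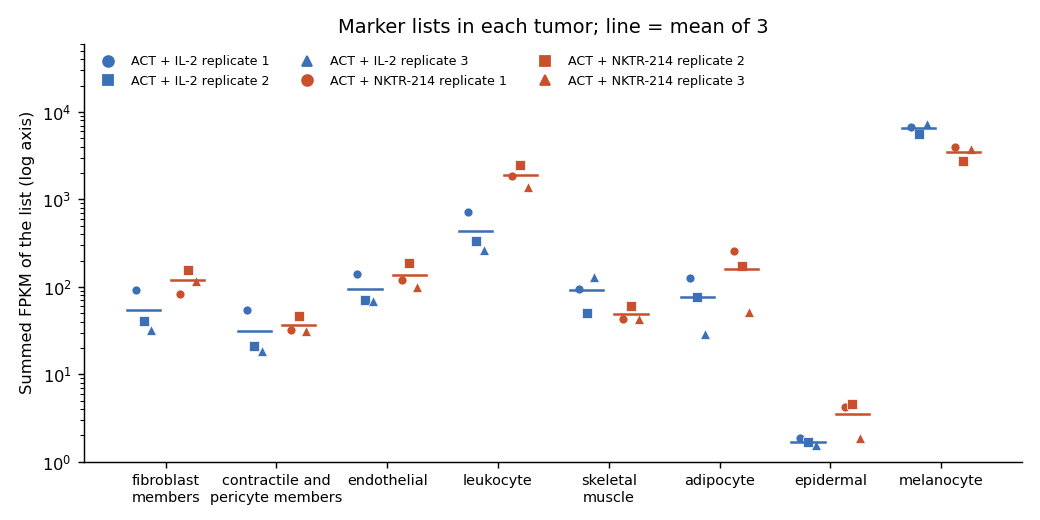
Summed FPKM (log axis) of the fibroblast members, the contractile and pericyte members and 6 marker lists in each tumor, with a line at the group mean. ACT + IL-2 replicate 1 was the highest ACT + IL-2 tumor for both member groups and for the endothelial (140), leukocyte (713), adipocyte (127) and epidermal (1.87) markers, but not for muscle or melanocyte markers.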

How the data were processed

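Whole B16-F10 tumors of 3 mice per group were profiled by RNA-seq (6 libraries, 50-base single-end reads). The authors mapped reads to GRCm38 with HISAT2 2.0.4, counted them per gene with HTSeq 0.6.1 and deposited the FPKM values used here, which are not logged. The gene annotation and strand setting were not given in the sources used here. All 6 columns were used. Depth was estimated from the steps that whole reads leave between low FPKM values, with exon lengths of GENCODE vM21, which also gave positions and overlaps. Reads behind *Fap* are those at which a single exon length made all 6 values whole (root mean square deviation 0.00459 reads).

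Values were taken as log2(FPKM + 1), and the 14172 genes averaging 0.1 FPKM or more entered limma 3.58.1 under R 4.3.3 (eBayes with an intensity trend, Benjamini-Hochberg adjustment, threshold 0.05). Fold changes on this scale understate the change of genes with low values. No block was used. The fit was tested on simulated data. The members and lists were chosen with earlier results of these data known. Named genes were the members, any tested gene of the PDGF, proteoglycan and TGF-β lists (1 is not reported here), and elsewhere up to 3 called genes per direction with the smallest adjusted p and a mean of at least 1 FPKM (exceptions are marked in the text), the most abundant marker of each cell type and the 5 genes most like *Dcn*, *Acta2* and *Rgs5*. Ratios between members were added after the values were seen. Promoter windows came from RefSeq. Further steps used pandas 2.3.3 and numpy 2.4.6 on Python 3.11.15, with matplotlib 3.10.9 for plots.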

Additional observations from a re-analysis of the deposited data

How the results depend on the processing

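Alternatives covered the pseudocount (0.1), the filter (1 FPKM, or no minimum), the scaling (75th percentile or quantile), the moderation (no trend, or no moderation), a replicate block and the omission of each tumor. The 4 members called higher became 1 with no minimum, which adds genes of near-zero level to the fit, and 0 with no moderation, which leaves 4 degrees of freedom a gene. With 1 tumor left out they ranged from 0 to 8, and 0 members were called lower under every alternative. Over all genes, 2940 were higher and 1173 lower, which became 101 and 27 with no moderation. The genes called lower were 3709 with 75th percentile scaling (3259 higher) and 4549 with quantile normalization (2669 higher), and the median over all genes went from 0.05 to -0.029 and -0.10 (log2). With 1 tumor left out they ranged from 635 to 2003, and the genes called higher from 2004 to 3480. The log2 fold change of *Cspg4* was -0.061 with quantile normalization. That of *Acta2* was -0.038 without ACT + IL-2 replicate 3 and ranged up to 0.92 with other tumors left out. That of *Rgs5* was 0.39 without ACT + IL-2 replicate 1, 0.051 without ACT + NKTR-214 replicate 1 and 0.13 without ACT + NKTR-214 replicate 3, with a lowest value of -0.30. None of these reversed values passed the threshold. The causes were not tested. *Dcn* passed in 12 of 14 alternatives, *Pdgfra* in 11, *Pdgfrb* in 10 and *Postn* in 7. The replicate numbers stand for different mice, and deviations of same-numbered tumors correlated at -0.21, -0.07 and 0.40. With the replicate block, 4 members, 3090 higher and 1227 lower genes were called. The level difference between fibroblast and other members was recomputed with the pseudocount of 0.1, both scalings and each tumor left out, and ran from 0.47 to 0.67. It was not recomputed under the other alternatives.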
